A study of Mus musculus with 9 samples.

Results

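Hormone-secreting cells keep their peptides in granules and release them when calcium rises. The 9 genes of that release machinery examined here, in mouse small intestinal epithelium, were Syt13, Syt7, Snap25, Stx1a, Vamp2, Rab3c, Cplx2, Ica1 and Scgn. They were chosen by symbol, with earlier results of these data known. All 9 were found among the 35013 gene symbols of each of 2 tables of normalized counts. A normalized count here is a gene's estimated number of reads after the authors' normalization, for which the deposited tables name kallisto and DESeq2. The factors used are not given in the sources used here. All 9 averaged 10 or more normalized counts across the 6 libraries of each table, the minimum for testing.

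All cells came from Neurog3Cre-FoxO1 f/f, Rosa26tdtomato mice (NFKO mice), 4 to 6 weeks of age. In these mice, Cre recombinase driven by Neurog3, which is active in endocrine progenitors of the gut, deletes FoxO1 and turns on the red reporter Tomato in the same cells and their descendants. Tomatoneg cells carry the same floxed alleles but had not turned on the reporter, so the comparison sets labelled descendants of Neurog3 progenitors against the rest of the epithelium of the same genotype. It does not set FoxO1 deletion against an intact gene within 1 lineage. Tomato+ cells were divided by the surface antigen CD24 into CD24negTomato+ and CD24+Tomato+ cells, and each of the 3 populations had 3 libraries, 9 in all. The labels call the libraries biological replicates but do not say how many mice each one pooled. The same 3 Tomatoneg libraries are in both tables.

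Estimated depth was 29962630 to 37133889 reads in CD24negTomato+ libraries, 27723742 to 39234462 in CD24+Tomato+ libraries and 19158348 to 24368832 in Tomatoneg libraries. A value worth 3 reads, taken as the limit of detection for counting error only, was 2.10 to 2.92 in Tomato+ libraries and 3.23 to 4.29 in Tomatoneg libraries. Tomatoneg replicate 1 stood apart, with a correlation of 0.818 to 0.864 across genes with the other Tomatoneg libraries, which correlated at 0.924 to 0.927 with each other. Foxo1, the targeted gene, gave 467, 274 and 371 normalized counts in CD24negTomato+ cells and 695, 518 and 424 in Tomatoneg cells (log2 fold change -0.56 ± 0.33 SE, adjusted P = 0.427). CD24+Tomato+ libraries had 319, 193 and 201, against 748, 529 and 444 (log2 fold change -1.27, adjusted P = 0.0579, and 0.0220 with the replicate number as a block). Foxo1 was lower in 3 of 3 same-numbered pairs of each comparison, and whether the counted reads cover the deleted part was not tested. Chga, which encodes the granule protein chromogranin A and marks enteroendocrine cells (EEC), was higher in both Tomato+ populations, with log2 fold changes of 3.80 and 5.01 (adjusted P = 0.00602 and 0.00104).

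In regulated exocytosis, a granule is brought to the plasma membrane by Rab proteins, docked, primed and then fused. Fusion is driven by SNARE proteins, which are Stx1a and Snap25 on the plasma membrane and Vamp2 on the granule. Synaptotagmins sense calcium, and complexins hold or promote the assembled SNARE complex. This set of proteins is best known from neurons and is shared with pancreatic β cells and EEC.

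All 9 genes had higher normalized counts in every Tomato+ library than in any Tomatoneg library, in both comparisons. Groups did not overlap in that direction for 14.7% of all genes tested in the CD24negTomato+ comparison and for 21.6% in the CD24+Tomato+ comparison. With the limma test, 5 of the 9 (Rab3c, Syt7, Cplx2, Snap25 and Syt13) were higher in CD24negTomato+ cells at an adjusted P under 0.05, where 0.999% of all 13420 genes tested were higher. The same test gave 8 of 9 as higher in CD24+Tomato+ cells, all but Stx1a, where 8.02% of 13874 genes were higher. In a fit that treats same-numbered libraries as blocks, the counts were 8 (background 4.34%) and 9 (background 10.8%). The median log2 fold change of the 9 was 2.67 in CD24negTomato+ cells and 4.97 in CD24+Tomato+ cells, against 0.08 and 0.16 over all genes tested. Since the 9 were chosen with earlier results known, the shares over all genes are given as context and not as a test. In bulk RNA from sorted cells, a larger share of cells of a type and more RNA per cell cannot be told apart. The tables were normalized separately and share the Tomatoneg libraries, so CD24negTomato+ values were not tested against CD24+Tomato+ values.

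**Figure D1:**
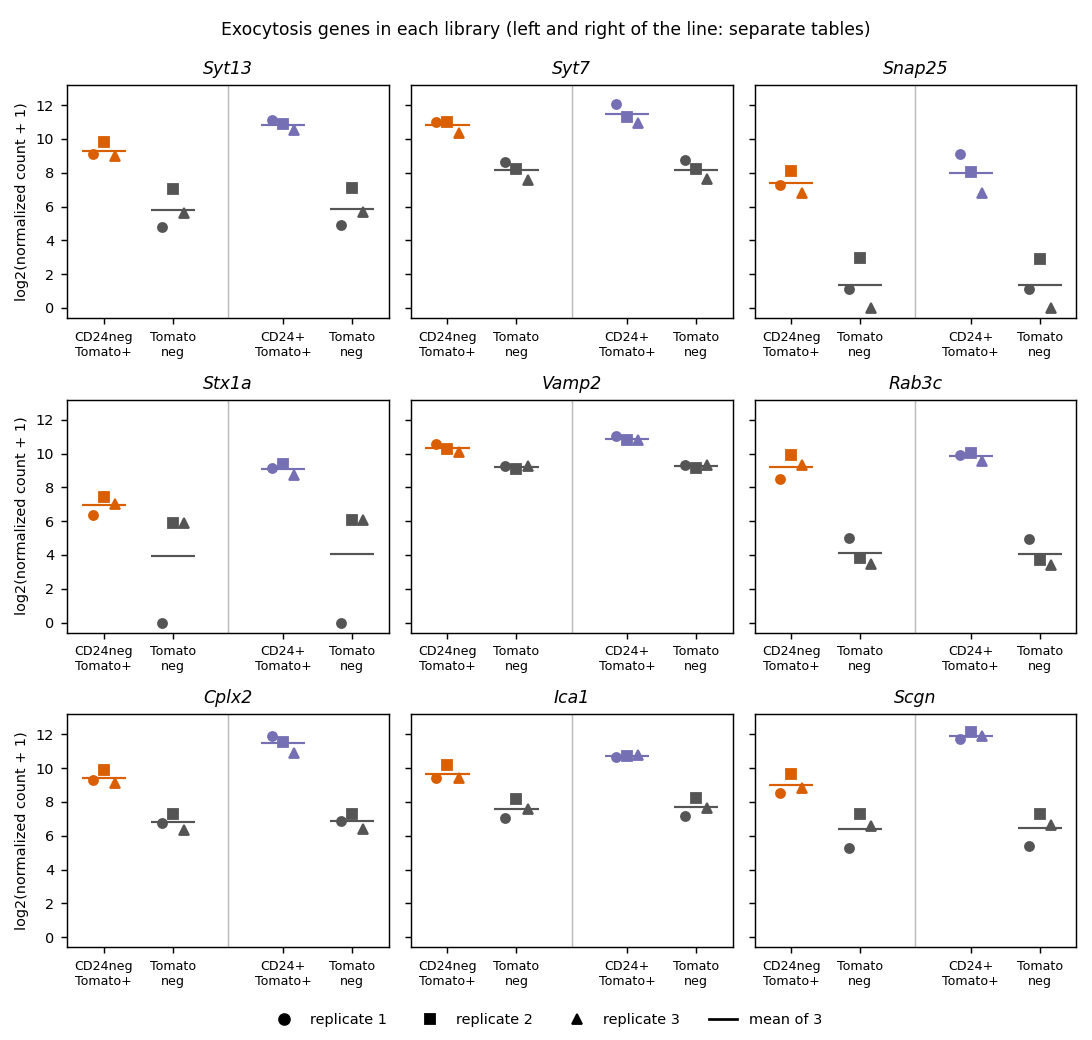
Normalized counts of the 9 exocytosis genes in each library, as log2(normalized count + 1) on the vertical axis, with the CD24negTomato+ table to the left and the CD24+Tomato+ table to the right of the grey line in each panel. Symbols are replicates 1 to 3 and bars are means. In each panel the 3 Tomato+ libraries lie above the 3 Tomatoneg libraries, and Stx1a in Tomatoneg replicate 1 and Snap25 in Tomatoneg replicate 3 are at 0.

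Stx1a encodes syntaxin 1A, a plasma membrane SNARE (GRCm38 chromosome 5, 135023482 to 135051100, plus strand). Replicates 1, 2 and 3 of CD24negTomato+ cells gave 82.7, 173 and 128 normalized counts, while Tomatoneg replicates gave 0, 58.1 and 58.3. For CD24+Tomato+ cells the values were 573, 659 and 420, compared with 0, 65.0 and 66.8. The library listed at 0 is Tomatoneg replicate 1, while the other two Tomatoneg libraries were close to each other. This gave a log2 fold change of 3.02 ± 1.53 (SE) in CD24negTomato+ cells (adjusted P = 0.359) and 5.04 ± 1.56 in CD24+Tomato+ cells (adjusted P = 0.0770, and 0.0324 with the block). Without Tomatoneg replicate 1 the values were 1.06 (adjusted P = 0.173) and 3.02 (adjusted P = 0.00319), so that library set much of the size of both changes. With it kept, Stx1a in CD24+Tomato+ cells also passed at a pseudocount of 10 (3.84, adjusted P = 0.0169) and with quantile normalization (3.78, adjusted P = 0.0263).

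Snap25 encodes SNAP-25, the partner of syntaxin 1A on the plasma membrane (chromosome 2, 136713453 to 136782428, plus strand). Normalized counts came to 157, 276 and 111 in the 3 CD24negTomato+ libraries, compared with 1.2, 6.8 and 0 in the Tomatoneg libraries. The corresponding CD24+Tomato+ table gave 544, 261 and 109, and 1.2, 6.5 and 0 for Tomatoneg cells. Tomatoneg libraries were thus at or under the value of 3 reads except replicate 2, and CD24+Tomato+ libraries differed among themselves by 4.97 times. The fitted log2 fold change was 6.04 ± 0.97 in CD24negTomato+ cells (adjusted P = 0.0361) and 6.62 ± 1.02 in CD24+Tomato+ cells (adjusted P = 0.00983). With so low a control the size depends on the pseudocount, and ranged from 3.86 to 7.45 and from 4.41 to 8.03 over the alternatives. The adjusted P in CD24+Tomato+ cells was 0.0516 without CD24+Tomato+ replicate 1 and 0.0775 without replicate 2. That in CD24negTomato+ cells was 0.0990 with a pseudocount of 0.1, 0.0511 without a filter and 0.0681 with a minimum mean of 50.

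Vamp2, the granule SNARE (chromosome 11, 69088490 to 69092384, plus strand), was the gene of the 9 with the smallest fold change and, per kb of transcript, the highest Tomatoneg level. CD24negTomato+ libraries held 1495, 1250 and 1104 normalized counts (replicates 1, 2 and 3), and Tomatoneg libraries 604, 548 and 614. CD24+Tomato+ libraries held 2140, 1778 and 1785, against 652, 562 and 646 in Tomatoneg libraries of that table. The spread among Tomatoneg replicates was small, with a coefficient of variation of 6.02% and 8.09% in the 2 tables. Its log2 fold change was 1.11 ± 0.23 in CD24negTomato+ cells (adjusted P = 0.0698, and 0.0305 with the block) and 1.61 ± 0.21 in CD24+Tomato+ cells (adjusted P = 0.00624, and 0.0557 without CD24+Tomato+ replicate 2).

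Syt7 encodes synaptotagmin 7, a calcium sensor of high affinity (chromosome 19, 10389090 to 10453180, plus strand, with an exon overlapping Gm26859 on the opposite strand). Replicates 1, 2 and 3 of CD24negTomato+ cells gave 2066, 2091 and 1321 normalized counts, while Tomatoneg replicates gave 400, 293 and 189. For CD24+Tomato+ cells the values were 4320, 2550 and 2008, compared with 426, 296 and 196. Syt7 was clearly present in all Tomatoneg libraries, and replicate 3 was the lowest library of each group. This gave a log2 fold change of 2.67 ± 0.35 (adjusted P = 0.0172) and 3.26 ± 0.39 (adjusted P = 0.00536). The CD24negTomato+ value had an adjusted P of 0.0510 without Tomatoneg replicate 2. Whether the counting separated strands is not given in the sources used here, so reads of Gm26859 and Syt7 cannot be told apart where they overlap.

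Syt13 encodes an atypical synaptotagmin that lacks the residues for binding calcium (chromosome 2, 92915098 to 92956058, plus strand). Normalized counts came to 557, 891 and 519 in the 3 CD24negTomato+ libraries, compared with 26.7, 131 and 47.2 in the Tomatoneg libraries. The corresponding CD24+Tomato+ table gave 2253, 1857 and 1482, and 28.8, 134 and 49.5 for Tomatoneg cells. The Tomatoneg libraries differed among themselves more than the Tomato+ libraries did, with coefficients of variation of 81.1% against 31.2% and 78.9% against 20.7%. The fitted log2 fold change was 3.50 ± 0.60 in CD24negTomato+ cells (adjusted P = 0.0441, and 0.0881 without Tomatoneg replicate 3) and 4.97 ± 0.56 in CD24+Tomato+ cells (adjusted P = 0.00429). With a pseudocount of 0.1, equal library totals or no trend in the variance, the adjusted P in CD24negTomato+ cells was 0.0609, 0.0648 and 0.0592.

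Rab3c encodes a small GTPase of secretory vesicles (chromosome 13, 110054187 to 110280996, minus strand). CD24negTomato+ libraries held 354, 953 and 629 normalized counts (replicates 1, 2 and 3), and Tomatoneg libraries 31.3, 13.1 and 10.1. CD24+Tomato+ libraries held 949, 1038 and 761, against 30.4, 12.1 and 9.6 in Tomatoneg libraries of that table. The lowest Tomato+ library, CD24negTomato+ replicate 1, was 11.3 times its same-numbered Tomatoneg library, and that Tomatoneg library was the highest of the 3. Its log2 fold change was 5.12 ± 0.60 (adjusted P = 0.0127) and 5.80 ± 0.55 (adjusted P = 0.00231).

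Cplx2 encodes complexin 2, which binds the assembled SNARE complex (chromosome 13, 54371349 to 54383917, plus strand). Replicates 1, 2 and 3 of CD24negTomato+ cells gave 618, 935 and 558 normalized counts, while Tomatoneg replicates gave 108, 153 and 80.5. For CD24+Tomato+ cells the values were 3907, 2990 and 1923, compared with 116, 157 and 84.4. Its ratio to the same-numbered Tomatoneg library was 5.72, 6.11 and 6.93 in CD24negTomato+ replicates, a narrow range, and 33.6, 19.1 and 22.8 in CD24+Tomato+ replicates. This gave a log2 fold change of 2.63 ± 0.38 (adjusted P = 0.0234) and 4.60 ± 0.37 (adjusted P = 0.00139).

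Scgn encodes secretagogin, a calcium-binding protein of endocrine cells (chromosome 13, 23953456 to 23991214, minus strand). Normalized counts came to 373, 806 and 462 in the 3 CD24negTomato+ libraries, compared with 38.2, 153 and 94.9 in the Tomatoneg libraries. The corresponding CD24+Tomato+ table gave 3357, 4507 and 3873, and 41.6, 158 and 101 for Tomatoneg cells. The fitted log2 fold change was 2.64 ± 0.58 in CD24negTomato+ cells (adjusted P = 0.0738, and 0.0183 with the block) and 5.46 ± 0.48 in CD24+Tomato+ cells (adjusted P = 0.00172). Replicate 2 was the highest library in all of these groups.

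Ica1 encodes a membrane-curving protein of the secretory pathway that is also an autoantigen of pancreatic islets (chromosome 6, 8630527 to 8778488, minus strand). CD24negTomato+ libraries held 695, 1151 and 683 normalized counts (replicates 1, 2 and 3), and Tomatoneg libraries 132, 287 and 188. CD24+Tomato+ libraries held 1612, 1721 and 1737, against 144, 296 and 199 in Tomatoneg libraries of that table. The CD24+Tomato+ libraries were the closest to each other of any group of the 9 genes, with a coefficient of variation of 4.03%. Its log2 fold change was 2.08 ± 0.39 in CD24negTomato+ cells (adjusted P = 0.0518, and 0.0132 with the block) and 3.04 ± 0.32 in CD24+Tomato+ cells (adjusted P = 0.00318).

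**Figure D2:**
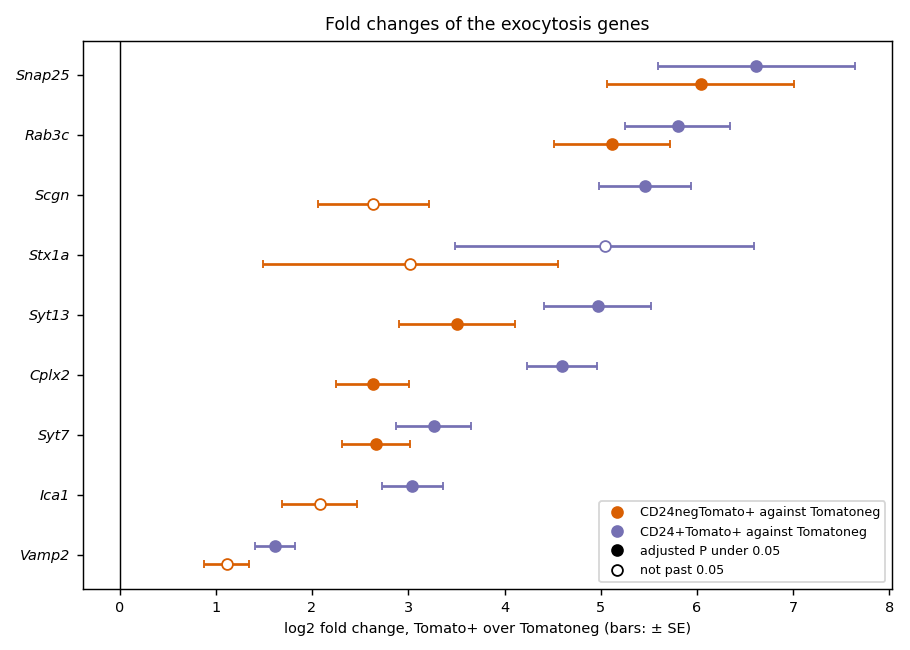
Log2 fold change of Tomato+ over Tomatoneg cells on the horizontal axis for each of the 9 genes, with bars of 1 SE. Filled points passed an adjusted P of 0.05. Values run from 1.11 (Vamp2) to 6.04 (Snap25) in CD24negTomato+ cells and from 1.61 to 6.62 for the same genes in CD24+Tomato+ cells.

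The CD24negTomato+ calls rested on all of its libraries. Without CD24negTomato+ replicate 1, 2 or 3, 0 of the 9 genes passed with limma, and the genes passing over all genes tested fell from 134 to 18, 8 and 40 in the higher direction. Without Tomatoneg replicate 1, 8 of 9 passed. At an unadjusted P under 0.05, 8 of 9 genes were higher with all libraries, where 10.3% of all genes tested were higher. CD24negTomato+ replicate 2 was the highest of its group for 8 of the 9 genes, and replicate 1 for Vamp2. For CD24+Tomato+ cells, 6 to 9 of the 9 passed when any single library was left out.

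Levels of different genes were compared only after division by transcript length, with the longest and the shortest protein-coding transcript of each gene in the GENCODE M21 annotation. Scgn had the highest mean level of the 9 in CD24+Tomato+ cells, 2771 ± 408 (SD, n = 3) normalized counts per kb of its longest transcript. This was above the level of every other gene on its longest or its shortest transcript, of which the highest was Syt7 at 2202 ± 899.6 per kb on its shortest, which did not differ from Scgn beyond its SD. No gene led in CD24negTomato+ cells on both lengths, since Vamp2 (582 ± 89.5 per kb) was highest on the longest transcripts and Syt7 (1358 ± 326) on the shortest, with Scgn (1164) and Vamp2 (1153) within its SD. Stx1a, with 1 transcript, had the lowest level in CD24negTomato+ cells on either length, at 59.0 ± 20.8 per kb. In Tomatoneg cells Vamp2 was the highest (267 ± 16.1 per kb on the longest transcript) and Snap25 the lowest on either length (2.63 on the shortest).

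Promoter sequences from RefSeq (GRCm38.p6) were held here for 5 of the 9 genes, namely Stx1a, Rab3c, Cplx2, Ica1 and Scgn. The 250 bases before the annotated start were searched on both strands for CAGATG, an E-box form that NeuroD and Neurogenin factors bind, for GTAAACA, a forkhead motif that FoxO factors bind, and for TCAGCAC and GGACAGC, which are parts of the element bound by the neuronal gene repressor REST. The table holds 2 windows for Ica1 and 1 for each of the others, 6 in all. CAGATG was found in 1 window, that of Ica1 at the start of the whole gene, with no other motif over it, on the plus strand of the gene at position -210. The second Ica1 window (chr6:8758459-8758708) held none of the motifs, and the other 3 motifs were found in none of the 6. The Cplx2 window (chr13:54302306-54302555) lay upstream of the gene position given above and held 99 bases of annotated Gm48623 exon. The Rab3c window (chr13:110280207-110280456) lay within the Rab3c gene. Neither was thus at the gene start given above. Of all 32851 promoters of this length, 14.4% held CAGATG, 3.17% GTAAACA, 4.23% TCAGCAC and 5.28% GGACAGC. The 3 windows that end at or within 4 bases of the GENCODE start of the gene are given 5′ to 3′ in the direction of the gene: Ica1 for its motif, in capitals, and Scgn and Stx1a as a calcium-binding protein and a SNARE without any of these motifs in the window.
Ica1, chr6:8778485-8778734, minus strand: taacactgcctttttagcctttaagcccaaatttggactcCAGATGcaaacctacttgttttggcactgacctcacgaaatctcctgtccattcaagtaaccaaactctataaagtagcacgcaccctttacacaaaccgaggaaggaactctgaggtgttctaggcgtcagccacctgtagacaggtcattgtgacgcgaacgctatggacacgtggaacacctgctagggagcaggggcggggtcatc
Scgn, chr13:23991215-23991464, minus strand: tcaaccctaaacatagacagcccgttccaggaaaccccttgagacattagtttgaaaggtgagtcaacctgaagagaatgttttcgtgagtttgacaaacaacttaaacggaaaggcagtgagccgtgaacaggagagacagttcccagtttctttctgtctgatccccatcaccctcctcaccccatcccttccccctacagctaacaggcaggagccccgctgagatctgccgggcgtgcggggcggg
Stx1a, chr5:135023232-135023481, plus strand: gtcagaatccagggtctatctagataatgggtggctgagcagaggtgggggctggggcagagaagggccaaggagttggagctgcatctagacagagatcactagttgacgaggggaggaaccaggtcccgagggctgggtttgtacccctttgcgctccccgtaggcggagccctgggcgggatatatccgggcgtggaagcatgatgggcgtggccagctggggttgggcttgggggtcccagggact
The GC content of these windows was 49.6%, 53.2% and 62.0%, and the median over all promoters was 52.4%.

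A wider list of 93 exocytosis genes outside the 9, also chosen with earlier results of these data known, was compared in the same fits. Of these, 92 were in the tables, and 67 were tested in the CD24negTomato+ and 70 in the CD24+Tomato+ comparison. At the threshold 5 of 67 were higher and 0 lower in CD24negTomato+ cells, where 0.999% of all genes were higher and 0.32% lower. With the block 18 were higher and 0 lower, against 4.34% and 2.96% of all genes. At an unadjusted P under 0.05 limma gave 0 lower, where 6.82% of all genes were lower. For CD24+Tomato+ cells 27 of 70 were higher and 0 lower, where 8.02% of all genes were higher and 4.89% lower. With the block 34 were higher and 1 lower, against 10.8% and 9.95% of all genes, and the lower gene was Unc13d, named after its values were seen. At an unadjusted P under 0.05, 2 were lower in CD24+Tomato+ cells, where 11.5% of all genes were lower and 16.3% higher. The median log2 fold change was 1.12 and 1.83. Without CD24+Tomato+ replicate 1, 2 or 3, the 27 fell to 8, 2 and 6, and without CD24negTomato+ replicate 1 or 2 the 5 fell to 0. Without Tomatoneg replicate 1 the 5 became 17, and the CD24+Tomato+ count of lower genes became 2.

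**Figure D3:**
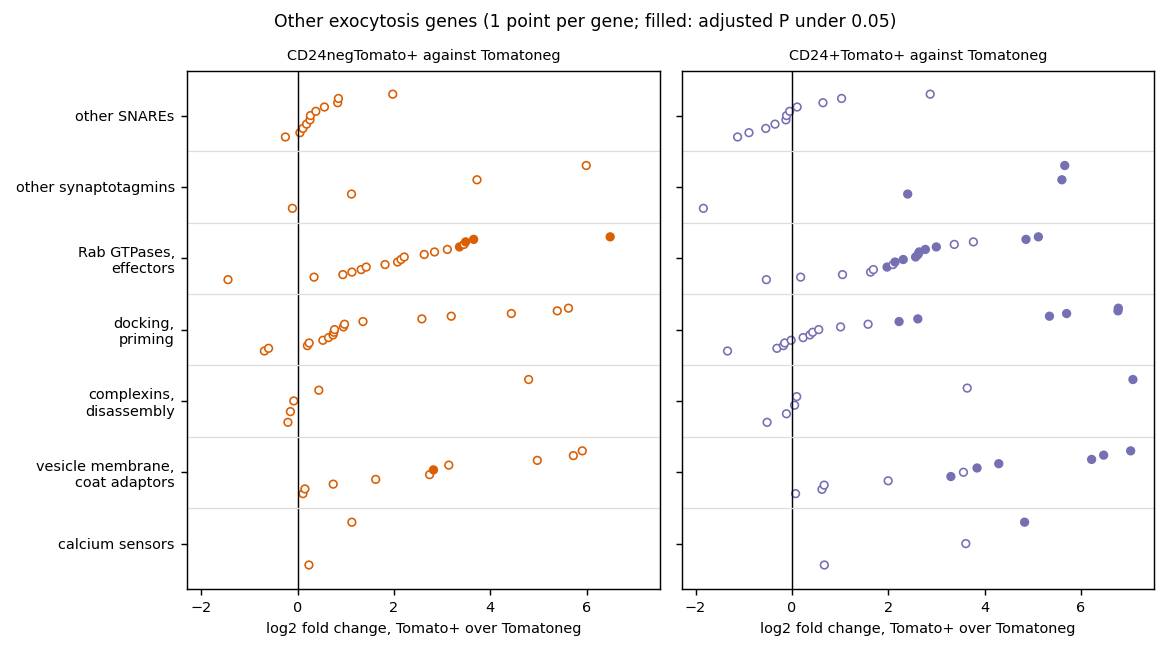
Log2 fold change of Tomato+ over Tomatoneg cells on the horizontal axis for the 67 and 70 other exocytosis genes tested, 1 point per gene, by functional group on the vertical axis. Filled points passed an adjusted P of 0.05. No point of the 11 other SNAREs is filled in either panel, and 4 and 10 of the 18 Rab GTPases and effectors are. Of all genes tested, 0.999% and 8.02% passed as higher.

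Of the other SNAREs, 0 of 11 passed in either comparison with limma, and 0 had an unadjusted P under 0.05. Over all genes, 0.999% and 8.02% passed as higher and 0.32% and 4.89% as lower. At an unadjusted P under 0.05, 10.3% and 16.3% were higher and 6.82% and 11.5% lower. With shares this low, 0 of 11 does not set the SNAREs apart from all genes. With the block 0 passed as well. An unadjusted P under 0.05 was then given to 1 of 11 as higher in CD24negTomato+ cells (17% of all genes) and to 2 of 11 as lower in CD24+Tomato+ cells (15.9% of all genes). Stx3, a plasma membrane syntaxin of epithelial cells, gave 2736, 2025 and 1876 normalized counts in CD24negTomato+ libraries against 3911, 1292 and 1205 in Tomatoneg libraries (log2 fold change 0.26, adjusted P = 0.803), and its log2 fold change in CD24+Tomato+ cells was -0.89 (adjusted P = 0.266). Snap23, the broadly expressed relative of Snap25, had 803, 883 and 660 against 988, 521 and 160, with log2 fold changes of 0.83 (adjusted P = 0.513) and -0.13 (adjusted P = 0.919). Vamp8, a SNARE of zymogen and mucin granules, had 1744, 1710 and 1960 against 1528, 1416 and 2145, with log2 fold changes of 0.11 (adjusted P = 0.842) and -0.11 (adjusted P = 0.810). These 3 relatives were well expressed in all populations.

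The ratio of each SNARE to its relative was then taken within each library, as a difference in log2(normalized count + 1), together with that of Rab3c to Rab3d. The pairs were chosen with the values known. Snap25 over Snap23 was -2.20 ± 0.46 (SD, n = 3) in CD24negTomato+ and -7.40 ± 1.37 in Tomatoneg libraries, a difference of 5.21. For the CD24+Tomato+ table it was -0.75 ± 0.83 against -7.50 ± 1.38, a difference of 6.74. Vamp2 over Vamp8 differed by 1.0 and 1.73, and its groups did not overlap in either table. Stx1a over Stx3 differed by 5.93 in the CD24+Tomato+ table. Its difference of 2.76 in the CD24negTomato+ table came with overlapping groups, since CD24negTomato+ replicate 1 (-5.03) lay below Tomatoneg replicates 2 (-4.45) and 3 (-4.35). Rab3c over Rab3d differed by 3.70 and 3.49. The exact two-sided permutation test gave P = 0.1 in 7 of these 8 comparisons, the smallest it can give with 3 against 3, and P = 0.4 for Stx1a over Stx3 in the CD24negTomato+ table (0.114 and 0.4 after adjustment over the 8).

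**Figure D4:**
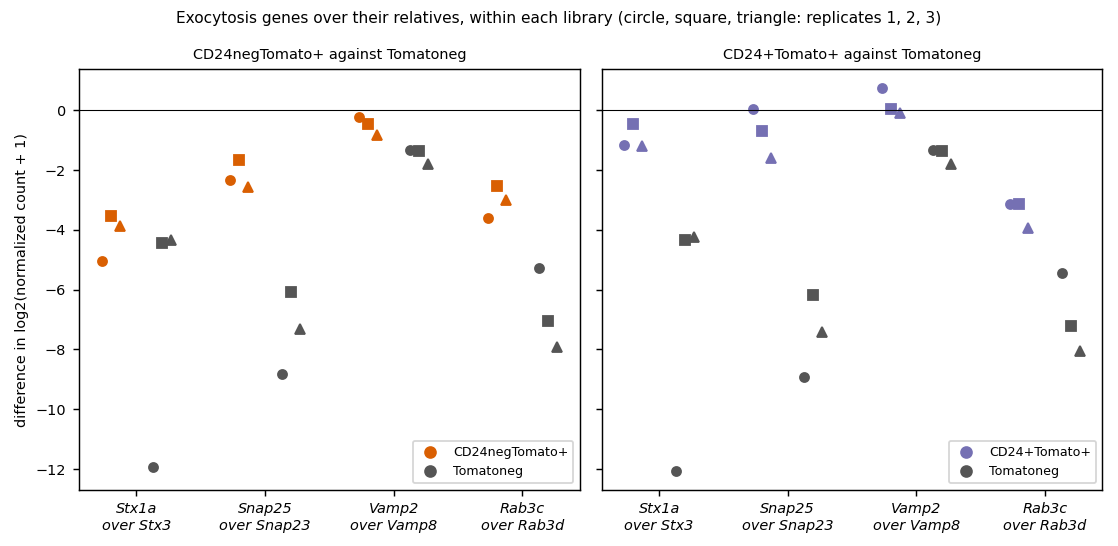
Difference in log2(normalized count + 1) between a gene and its relative on the vertical axis, within each library, for 4 pairs. Colored symbols are Tomato+ and grey symbols Tomatoneg libraries. Colored symbols lie above grey ones for every pair but Stx1a over Stx3 in the CD24negTomato+ table, where the groups overlap.

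Among other synaptotagmins, 0 of 4 tested passed in CD24negTomato+ cells with limma, where 2 had an unadjusted P under 0.05 and 1, Syt14, passed with the block (log2 fold change 5.99, adjusted P = 0.0657, and 0.0472 with the block). Over all genes, limma gave 0.999% as higher in CD24negTomato+ and 8.02% in CD24+Tomato+ cells. In CD24+Tomato+ cells 3 of 4 were higher, namely Syt14 (5.66, adjusted P = 0.0288), Syt5 (5.60, adjusted P = 0.0477) and Syt11 (2.40, adjusted P = 0.0371). Syt1, the fast calcium sensor of neurons, was at or under 14.6 normalized counts in every library and was not tested.

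Of the Rab GTPases and their effectors, 4 of 18 were higher in CD24negTomato+ cells (7 with the block). The shares over all genes were 0.999% there (4.34% with the block) and 8.02% in CD24+Tomato+ cells (10.8% with the block). Rab27a and Rab27b, which tether granules near the membrane, and their effectors Sytl2 and Sytl5 were higher. Rab27a had 3038, 3348 and 1704 normalized counts against 266, 324 and 184 in Tomatoneg replicates (log2 fold change 3.36 ± 0.35, adjusted P = 0.00910). Sytl5, at 0 in Tomatoneg replicates 1 and 3, had 198, 354 and 98.3 (log2 fold change 6.49, adjusted P = 0.0445), and Sytl2 and Rab27b had log2 fold changes of 3.65 and 3.49 (adjusted P = 0.0232 and 0.0215). There were 10 of 18 higher in CD24+Tomato+ cells (13 with the block), led by Sytl5 (5.11, adjusted P = 0.0322), Rab3b (4.86, adjusted P = 0.0405) and Sytl1 (3.0, adjusted P = 0.0196). Rab27a had a log2 fold change of 2.77 there (adjusted P = 0.00348). Rab3d, a relative of Rab3c found on exocrine granules, had 8358, 9100 and 11740 normalized counts against 1352, 1930 and 2814 (log2 fold change 2.31, adjusted P = 0.00661), and in CD24negTomato+ cells its log2 fold change was 1.42 (adjusted P = 0.0702, and 0.0198 with the block). Rab3a, the main Rab3 of neurons, had log2 fold changes of 0.94 (adjusted P = 0.413) and 1.69 (adjusted P = 0.0723, and 0.0452 with the block).

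Of the docking and priming factors, 0 of 17 passed in CD24negTomato+ cells with limma (4 with the block). Over all genes 0.999% were higher (4.34% with the block). At an unadjusted P under 0.05, 6 of 17 were higher, where 10.3% of all genes were. For CD24+Tomato+ cells the shares over all genes were 8.02% higher with limma, and 10.8% higher and 9.95% lower with the block. There were 6 of 17 higher in CD24+Tomato+ cells (7 higher and 1 lower with the block), led by Stxbp5l (6.77, adjusted P = 0.0109), an inhibitor of SNARE assembly, the active zone scaffold Pclo (6.77, adjusted P = 0.0178) and Cadps (5.70, adjusted P = 0.0341), which primes dense-core granules. Cadps had 552, 427 and 402 normalized counts there against 0, 55.4 and 11.0, and its log2 fold change in CD24negTomato+ cells was 4.44 (adjusted P = 0.157). In CD24negTomato+ cells Stxbp5l had 5.62 (adjusted P = 0.0510, and 0.0359 with the block) and Pclo 5.39 (adjusted P = 0.0791, and 0.0359 with the block). Tomatoneg replicate 1 was listed at 0 for Stxbp5l and Pclo too, so the fitted sizes of these genes depend on the pseudocount. Stxbp2, a syntaxin-binding protein used by epithelial and blood cells, had log2 fold changes of 0.24 (adjusted P = 0.707) and -0.18 (adjusted P = 0.728). Unc13a, a priming factor of synapses, had 0.97 (adjusted P = 0.410) and 2.22 (adjusted P = 0.0436).

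Complexin 1 (Cplx1) was the only call among complexins and disassembly factors. It had 279, 336 and 238 normalized counts in CD24+Tomato+ replicates against 0, 3.3 and 1.1 (log2 fold change 7.07 ± 0.80, adjusted P = 0.00432), and 45.5, 85.6 and 45.9 in CD24negTomato+ replicates (log2 fold change 4.79 ± 1.0, adjusted P = 0.0678, and 0.0499 with the block). Tomatoneg libraries were under the value of 3 reads for this gene, and its fitted size depends on the pseudocount. The vesicle membrane group gave 1 call of 10 in CD24negTomato+ cells (5 with the block) and 6 of 11 in CD24+Tomato+ cells (8 with the block). Over all genes 0.999% and 8.02% were higher (4.34% and 10.8% with the block). Ptprn2, a receptor-type phosphatase homolog of granule membranes, was higher in both, at 2112, 2959 and 1833 against 305, 406 and 260 in CD24negTomato+ cells (2.82 ± 0.29, adjusted P = 0.00910) and with a log2 fold change of 4.29 in CD24+Tomato+ cells (adjusted P = 0.00102). Ptprn, its close relative, had 5.91 (adjusted P = 0.0736, and 0.0265 with the block) and 7.03 (adjusted P = 0.0176). Syn2, a synapsin, had 6.22 in CD24+Tomato+ cells (adjusted P = 0.0170). Syn1 was listed at 0 in all Tomatoneg libraries. Its mean in CD24+Tomato+ cells, 107 ± 66.4, was 24.9 times the highest value worth 3 reads per Tomatoneg library (adjusted P = 0.00940 with limma). The lowest CD24+Tomato+ library was 7.49 times that value. In CD24negTomato+ cells Syn1 had 5.72 (adjusted P = 0.0503, and 0.0471 with the block) and Syn2 4.98 (adjusted P = 0.0841, and 0.0355 with the block). Of the other calcium-binding proteins listed, Calb1 and Calb2 were too low to be tested in either comparison. Hpca was higher in CD24+Tomato+ cells (4.83, adjusted P = 0.0272) as the only call of 3 tested without the block. With the block 2 of 3 passed, the other being Hpcal1 (0.67, adjusted P = 0.0911, and 0.0326 with the block), and 0 of 2 passed in CD24negTomato+ cells with limma, with 0 at an unadjusted P under 0.05.

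Markers of several cell types differed between the populations. The summed normalized count of 12 EEC markers was 120992 to 238874 in CD24negTomato+ and 3601 to 9110 in Tomatoneg libraries, a ratio of means of 27.1, and 191257 to 325678 in CD24+Tomato+ libraries, a ratio of 43.4. Of the 12, 8 and 12 passed the test as higher (11 and 12 with the block). The sum of 9 goblet cell markers was 13.9 and 5.90 times the Tomatoneg mean, and 8 and 9 of them passed as higher (9 and 9 with the block). The sum of 8 Paneth cell markers was 0.350 and 12.1 times the Tomatoneg mean. In the CD24negTomato+ table the Paneth sums overlapped, at 19347 to 48746 against 36078 to 150687. There 0 of the 8 passed (4 lower with the block), and 7 were higher in CD24+Tomato+ cells (8 with the block). The other lists are given by their limma calls. Of the tuft cell markers, 3 of 6 tested were lower in CD24negTomato+ cells (6 with the block) and 6 of 8 higher in CD24+Tomato+ cells, with median log2 fold changes of -2.82 and 2.95. Among 8 enterocyte markers, 0 passed in CD24negTomato+ cells (1 at an unadjusted P under 0.05, 1 higher with the block) and 5 were lower in CD24+Tomato+ cells (8 with the block). Of 7 stem and progenitor markers, 1 was lower in CD24negTomato+ cells (4 with the block) and 0 passed in CD24+Tomato+ cells (0 at an unadjusted P under 0.05, 1 higher with the block). Of 9 immune markers, 3 and 6 were lower (5 and 8 with the block), with medians of -2.69 and -3.58. Of 8 pancreatic acinar markers, 0 passed in either comparison (0 and 5 at an unadjusted P under 0.05, 0 and 2 higher with the block). Their sum in CD24+Tomato+ libraries was 977, 597 and 4950, highest in replicate 3, against 270, 357 and 276 in Tomatoneg libraries. All 8 had a higher mean in CD24+Tomato+ cells, with a median log2 fold change of 3.48. Of the pancreatic islet markers, 1 of 7 and 2 of 5 tested were higher (3 of 7 higher, and 2 higher and 1 lower of 5, with the block), with medians of 2.41 and 2.0. The part of cell type proportions in the changes of the 9 genes was not tested. Since these genes are best known from neurons, 11 markers of enteric neurons and glia were examined. Their sum was 40.5 to 151 in CD24negTomato+ and 18.1 to 64.9 in Tomatoneg libraries, a ratio of means of 2.11. It was 473 to 1078 in CD24+Tomato+ libraries against 21.8 to 67.8, a ratio of 16.0. Only 2 of the 11, Nefl and Nefm, were high enough to be tested. Of these, 0 passed in CD24negTomato+ cells, with limma or with the block. Both were higher in CD24+Tomato+ cells, with log2 fold changes of 3.66 and 7.03 (largest adjusted P = 0.0277), where 8.02% of all genes were higher. The neuronal transcription factor Hand2 was at 0 in all libraries, the glial factor Sox10 was at 0 in all Tomato+ libraries, and the CD24+Tomato+ sum was carried by the neurofilament genes Nefl (193 to 299) and Nefm (263 to 754).

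Across the 6 libraries of each table, the genes whose profile was most like the mean profile of the 9 were sought among all other genes tested, by the smaller of the 2 Pearson correlations. They were Cplx1 (r = 0.999 in the CD24negTomato+ and 0.997 in the CD24+Tomato+ table), Insm1 (0.994 and 0.998), Gcnt3 (0.993 and 0.996), Gnao1 (0.992 and 0.995) and Cck (0.992 and 0.997). Insm1 encodes a transcription factor of endocrine cells, Cck the hormone cholecystokinin, Gnao1 a G protein subunit of neurons and endocrine cells, and Gcnt3 an enzyme of mucin glycosylation. Each value describes 6 libraries that share a division into Tomato+ and Tomatoneg, and the 2 tables share 3 libraries.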

How the data were processed

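Poly-A RNA from sorted small intestinal epithelial cells was sequenced by the authors. The authors' processing notes name bcl2fastq 2.19, kallisto 0.44.0, sleuth, DESeq2 and the GRCm38 build, with no role or order. The values that the authors deposited are a normalized signal in 2 tables of 6 libraries, which their file names describe as normalized counts from kallisto and DESeq2; the factors are not given in the sources used here. The Tomatoneg libraries in both tables differ by factors that vary from gene to gene (median 1.078, 1.024 and 1.050 in replicates 1, 2 and 3), so tests were made only within a table. Whole reads were not recovered, since 25.2% to 50.6% of low values lay within 0.02 of a whole multiple of each library's commonest low value, which served as 1 read to estimate its depth.

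From these values, log2(normalized count + 1) was fitted for the 13420 and 13874 genes that averaged 10 or more across a table's 6 libraries, by limma 3.58.1 (R 4.3.3) with lmFit and a trended eBayes. Two-sided P values were adjusted over all genes tested (Benjamini-Hochberg), with a threshold of 0.05. Fold changes are on the log2(value + 1) scale, and those of low genes depend on the pseudocount. A library listed at 0 can raise them above the ratio of means. Stx1a in CD24negTomato+ cells had a log2 fold change of 3.02 with a ratio of means of 3.29. The design has 3 against 3 libraries, and P values measure the spread between libraries, which may be partly technical. The fit was tested on simulated data of the same size. Replicate numbers come from the sample titles, which do not say whether same-numbered libraries share mice or a sort. Deviations from group means of same-numbered libraries correlated at 0.302, 0.291 and 0.342 in the CD24negTomato+ table and 0.283, 0.180 and 0.375 in the CD24+Tomato+ table, so fits with the number as a block are given where they change a call of a named gene or a count. Positions and transcript lengths are from GENCODE M21. Python 3.11.15, numpy 2.4.6, pandas 2.3.3 and matplotlib 3.10.9 were used.

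The 9 genes, the wider list, the marker lists and the motifs were chosen with earlier results of these data known. Of the wider list, the text names a fixed set of relatives and, per functional group, at most 3 genes past the threshold with the largest fold change; some listed genes are not reported here by name. The paired ratios were added after the values were seen. Alternatives were pseudocounts of 0.1 and 10, no filter, a minimum mean of 50, the replicate block, quantile normalization, equal library totals, a variance prior without trend, and each library left out. No library was left out of the values reported. Single-cell, QPCR and organoid data were not analysed here.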

Additional observations from a re-analysis of the deposited data

How the results depend on the processing

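Over 14 alternatives for each of the 9 genes, no fold change reversed. In CD24+Tomato+ cells 119 of 126 values kept their side of the threshold, 4 moved past it (Stx1a) and 3 lost it (Snap25 and Vamp2). In CD24negTomato+ cells 93 of 126 kept it, 10 moved past it (4 each of Ica1 and Scgn, 2 of Vamp2) and 23 lost it, 15 of them where a CD24negTomato+ library was left out. The cause was not tested. Scaling moved the median of all genes in CD24negTomato+ cells from 0.08 to -0.12 (equal totals) and -0.05 (quantile), and the 9 genes stayed higher under both.

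The number of the 9 genes called higher in CD24negTomato+ cells, 5, became 3 at a pseudocount of 0.1 and 8 with the replicate block, and was 0 to 8 with single libraries left out. In CD24+Tomato+ cells it was 6 to 9 with single libraries left out. Of the wider list, the 5 genes higher in CD24negTomato+ cells became 15 at a pseudocount of 10, 18 with the block, 14 with quantile normalization, 8 without the trend and 0 to 17 with single libraries left out. The 27 higher in CD24+Tomato+ cells became 14 at a pseudocount of 0.1 and 2 to 30 with single libraries left out, and the 0 lower became 1 with the block, 2 with quantile normalization and 0 to 2 with single libraries left out.

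Over all genes, 134 were higher in CD24negTomato+ cells, against 314 at a pseudocount of 10, 582 with the block, 304 with quantile normalization and 8 to 535 with single libraries left out. The 43 lower became 19 and 101 at pseudocounts of 0.1 and 10, 28 without the filter, 397 with the block, 190 with quantile normalization, 95 without the trend and 1 to 381 with single libraries left out. In CD24+Tomato+ cells, 1113 higher became 731 at a pseudocount of 0.1 and 107 to 1564 with single libraries left out, and 678 lower became 1381 with the block, 1036 with quantile normalization, 429 without the trend and 30 to 829 with single libraries left out. The replicate block changed no call of the 9 genes other than those given above. Genes near 3 reads in Tomatoneg cells (Snap25, Cplx1) have fold changes set by the pseudocount, and depth there limits how low they can be measured. Tomatoneg replicate 1 was also listed at 0 for Stxbp5l, Pclo, Cadps, Syt5, Syt14, Rab3b, Sytl5, Ptprn, Syn2 and Hpca. The sizes of their fold changes depend on that library and on the pseudocount.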
